A study of Homo sapiens with 2 samples.

Results

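AK4, TSPO, PRTFDC1 and CA2 are 4 genes of mitochondria, nucleotide metabolism and acid-base balance that were lower in Hep3B cells carrying a caveolin-1 hairpin. They were taken from the authors' deposited tables of probe sets that differed at least 2-fold, by gene symbol, and every listed probe set of each gene is given. This yielded 6 of the 244 listed probe sets, 3 for AK4 and 1 for each of the others, and 4 of the 190 genes that the tables name by a single symbol. The genes were chosen by their log2 difference between the samples, so that difference is a description of them and carries no test.

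The samples were 1 of Hep3B with a hairpin against caveolin-1 (shCav1) and 1 of Hep3B with a non-target control hairpin (shCtl), both grown in DMEM-HG medium. Hep3B is an established cell line from a human hepatocellular carcinoma. Total RNA of each was hybridised to 1 Affymetrix HG-U133 Plus 2.0 array, which reports a signal per probe set, a group of short oligonucleotides designed against a transcript or several related ones. With 1 array per group there is no replicate spread, no test is possible, and an effect of the hairpin's target cannot be told apart from any other difference between both samples. The number of arrays limits the precision of every value below. In cultured bulk RNA, fewer cells carrying a transcript and less transcript per cell cannot be told apart.

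AK4 encodes an adenylate kinase of the mitochondrial matrix, one of the enzymes that move phosphate between adenine and guanine nucleotides. It is known as a target of hypoxia-inducible factors. TSPO, once called the peripheral benzodiazepine receptor, is a cholesterol-binding protein of the outer mitochondrial membrane. PRTFDC1 is a close relative of HPRT1, the enzyme that recovers hypoxanthine and guanine into nucleotides in purine salvage. CA2 encodes cytosolic carbonic anhydrase, a zinc enzyme that interconverts carbon dioxide and bicarbonate and is abundant in red blood cells, kidney and bone-resorbing cells. Caveolin-1 itself builds the coat of caveolae, which are cholesterol-rich pits of the plasma membrane.

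The stretches around the first annotated transcription start of AK4, TSPO and PRTFDC1 are shown because these genes were lower together; CA2, also lower, is named without a sequence. They are RefSeq sequences of GRCh38.p14 running from 250 bases before to 50 bases after the start. Capitals mark the letters GGGCGG or their reverse complement CCGCCC (a GC box), and ACGTG or its reverse complement CACGT (the core of the hypoxia response element). TATAAA and TTTATA, the letters of a TATA box, were searched as well and are marked in the same way. The AK4 window is chr1:65147302-65147601 on the plus strand, that of TSPO is chr22:43151309-43151608 on the plus strand, and that of PRTFDC1 is chr10:24952557-24952856 on the minus strand.
AK4: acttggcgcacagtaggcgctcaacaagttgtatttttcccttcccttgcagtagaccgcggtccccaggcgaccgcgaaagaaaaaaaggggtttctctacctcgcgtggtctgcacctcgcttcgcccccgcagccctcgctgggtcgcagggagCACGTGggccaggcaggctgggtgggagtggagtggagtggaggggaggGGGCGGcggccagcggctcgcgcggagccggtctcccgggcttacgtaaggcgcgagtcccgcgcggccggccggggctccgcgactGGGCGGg
TSPO: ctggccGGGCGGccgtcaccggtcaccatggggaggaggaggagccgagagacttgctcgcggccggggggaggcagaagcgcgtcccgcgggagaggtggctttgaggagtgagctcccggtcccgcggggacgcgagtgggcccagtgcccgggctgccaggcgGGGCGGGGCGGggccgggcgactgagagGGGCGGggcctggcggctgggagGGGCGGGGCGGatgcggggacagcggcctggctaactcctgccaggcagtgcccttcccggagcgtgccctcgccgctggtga
PRTFDC1: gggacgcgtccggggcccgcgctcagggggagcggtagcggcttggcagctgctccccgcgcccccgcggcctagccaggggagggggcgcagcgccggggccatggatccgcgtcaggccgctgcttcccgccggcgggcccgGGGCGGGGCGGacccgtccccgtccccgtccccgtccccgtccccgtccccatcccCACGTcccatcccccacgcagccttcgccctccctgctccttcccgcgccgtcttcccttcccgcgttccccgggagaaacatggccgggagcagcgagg

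All 3 windows were rich in G and C, with 69.3% for AK4, 77.0% for TSPO and 78.7% for PRTFDC1 against a median of 58.7% over the 35116 promoter windows of the same table. The AK4 window held the hypoxia core on both strands at 1 place, where CACGT and ACGTG overlap as CACGTG and begin at -93 and -92 relative to the start, and the PRTFDC1 window held it once, on the minus strand. No such letters occurred in the TSPO window. This core was present in 21.4% of all windows of the RefSeq set. The GC box occurred 2 times in AK4, 6 times in TSPO and 2 times in PRTFDC1. Neighbouring copies share letters in TSPO and PRTFDC1. It occurred at least once in 45.0% of all windows. None of the 3 windows held the TATA letters, which 11.5% of all windows did. RefSeq lists 4 such windows for AK4, 3 for TSPO and 1 for PRTFDC1. The AK4 window next downstream held the hypoxia core 3 times, 2 of them overlapping as CACGTG. The remaining AK4 windows held none. The GC box occurred 3 times in each further AK4 window and 1 time in each further TSPO window. Matches of letters are descriptions and show no binding.

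The hairpin's target was checked first. The CAV1 signal fell from 935 on the shCtl array to 61.8 on the shCav1 array at probe set 212097_at, which is 6.61% of the control signal, and to 7.38% at 203065_s_at, in the direction of the labels. Over the 54613 probe sets that are not controls the median signal was 30.6 in shCtl and 30.8 in shCav1. A probe set was kept when the brighter of both arrays reached the median of all values, a signal of 30.7, which kept 28128. Their log2 differences had a median of -0.0067 and a robust SD, from the median absolute deviation, of 0.21. Among them 84 (0.299%) were at least 2-fold lower in shCav1 and 141 (0.501%) at least 2-fold higher. With the arrays centred on their hybridization spikes, described at the end, the split was 142 lower and 102 higher. All 6 probe sets of AK4, TSPO, PRTFDC1 and CA2 were kept and were at least 2-fold lower, which the choice of the genes fixes. At least 3-fold lower were AK4 at 225342_at, TSPO and PRTFDC1, 3 of the 16 probe sets (0.0569% of those kept) that passed this limit. For PRTFDC1 this rests on a shCav1 signal below the brightness limit, and with 16 added to the signals its log2 difference was -1.05.

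AK4 was lower at all 3 of its listed probe sets. Its probe set 225342_at had a signal of 596.5 in shCtl and 179 in shCav1, so that 30.0% of the control signal was left. Probe set 204348_s_at went from 428 to 166, leaving 38.8%. Probe set 204347_at went from 102 to 40.7, leaving 39.9%. The shCav1 array was the lower one at these 3, which the choice of the genes fixes. An AK4 probe set under 2-fold would not be listed, so their agreement in direction is no support. Every listed AK4 probe set stayed above its array's median signal on both arrays. The log2 differences were -1.74, -1.37 and -1.33 in the same order. Their mean was -1.48 ± 0.23 (SD over 3 probe sets, a technical spread within 1 pair of arrays). In the authors' deposited table the fold decreases are 3.33, 2.58 and 2.51.

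The 3 AK4 probe sets do not cover the same stretch. In the deposited alignments, for which no source used here names a genome build, 225342_at lies on the plus strand of chromosome 1 from 65695094 to 65697828. The other probe sets span 65613906 to 65692698 and 65613858 to 65694611, so 225342_at aligns beyond their ends, toward the 3' end of the gene. The deposited alignments place 204348_s_at and 204347_at on chromosomes 12 and 17 as well, and 225342_at on chromosome 1 alone. RefSeq names AK4 pseudogenes on both of these chromosomes, AK4P3 on chromosome 12 and AK4P1 on chromosome 17, among 6 AK4 pseudogenes in all. Binding of pseudogene transcripts by the 204348_s_at and 204347_at probes was not tested, so their values are less certain as measures of AK4. The probe set with the single alignment showed the larger decrease, by 0.37 and 0.41 on the log2 scale.

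TSPO was represented by 1 probe set, 202096_s_at, which aligns to the plus strand of chromosome 22 from 43547552 to 43559248. Its signal was 358 in shCtl and 112 in shCav1, which leaves 31.4%. Both values lay above the array median. The log2 difference was -1.67, and the fold decrease in the authors' deposited table is 3.19. Names ending in _s_at are given to probe sets that can bind more than 1 transcript, and no second TSPO probe set was listed to set beside it.

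PRTFDC1 had signals close to the array median. Its probe set 222803_at, on the minus strand of chromosome 10 from 25137544 to 25241533, had a signal of 49.5 in shCtl and 15.7 in shCav1, which leaves 31.6%. The shCtl value was 1.62 times the array median and the shCav1 value 0.507 times the median. PRTFDC1 was thus the only member whose signal crossed the array median between the samples. The log2 difference was -1.66 and the fold decrease in the authors' deposited table is 3.16. With 16 added to both signals before taking logs, a setting that shrinks dim differences, the PRTFDC1 difference was -1.05, and with 32 added it was -0.77, under 2-fold.

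CA2 went from 192 in shCtl to 65.8 in shCav1 at probe set 209301_at, which leaves 34.3%. This probe set aligns to the plus strand of chromosome 8 from 86376269 to 86393554. Both signals were above the array median, the shCav1 one 2.13 times. The log2 difference was -1.55 and the fold decrease in the authors' deposited table is 2.92. With 32 added to both signals it was -1.20. In the RefSeq gene order CA2 lies beside CA3, CA1 and CA13, further carbonic anhydrases, and none of these was named in the deposited tables.

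**Figure D1:**
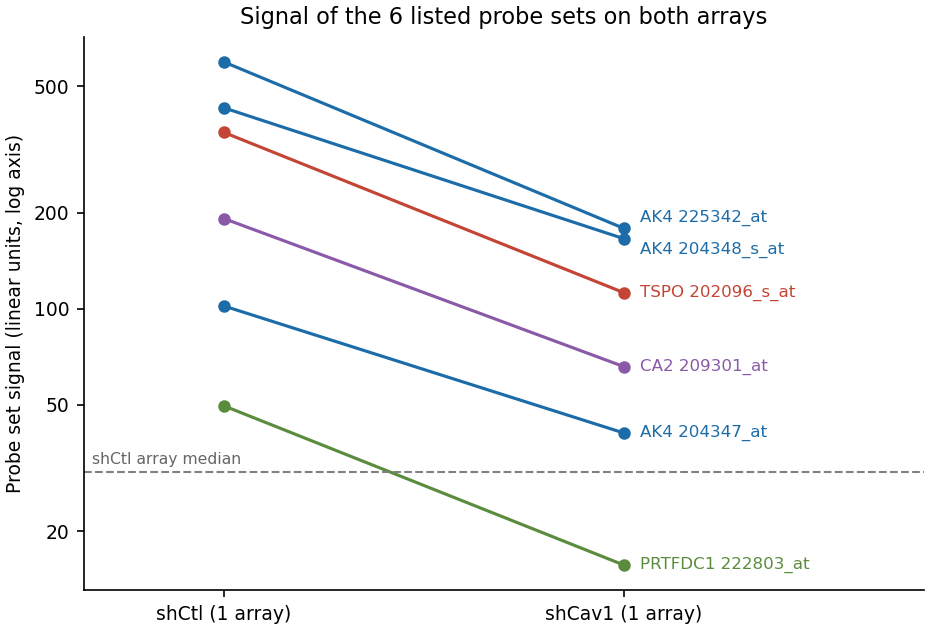
Signal of each listed probe set of AK4, TSPO, PRTFDC1 and CA2 on the shCtl and the shCav1 array, in linear units on a log axis, 1 array per group; lines join the values of 1 probe set and the dashed line is the shCtl array median of 30.6. Every line falls from shCtl to shCav1, and PRTFDC1 is the one that ends below the dashed line, at 15.7.

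Taking the brightest probe set of each, the log2 differences ran from -1.74 for AK4 to -1.55 for CA2, a range of 0.19. The range was 0.60 with 16 added to the signals and 0.80 with 32 added. PRTFDC1, whose shCav1 signal was dim, had the smallest decrease in both. AK4 and CA2 also moved apart, to -1.65 and -1.35 with 16 added and to -1.58 and -1.20 with 32 added. The distance between the AK4 probe sets, 0.41, was larger than the range as deposited, so the order of the 4 genes is not resolved by these values. Among the 62 kept lower genes with a single symbol, AK4 was 7th, TSPO 8th, PRTFDC1 10th and CA2 12th by size, and the median of these genes was -1.18. The member nearest to the limit was AK4 at 204347_at, with -1.33. The kept probe sets just inside the limit had differences from -1.011 to -1.005, while 2 just outside it lay within 1e-05 of the limit and the next had -0.9986.

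The members' brightness was not used to choose them, beyond what the 2-fold limit sets. When the kept probe sets were divided into 4 equal parts by mean log2 signal, PRTFDC1 lay in the dimmest, AK4 204347_at and CA2 in the second, and TSPO and the other AK4 probe sets in the third. The share of probe sets at least 2-fold lower was 0.313% in the dimmest part, 0.398% in the second, 0.327% in the third and 0.156% in the brightest. The robust SD of the differences was 0.22 in the dimmest part, 0.21 in both middle parts and 0.17 in the brightest. No member lay in the brightest part. The mean includes the shCav1 signal, which is low by the choice of the genes, so the parts are not independent of that choice. On the shCtl array alone, AK4 225342_at at 596.5 and 204348_s_at at 428 exceeded 416, the lowest mean signal of the brightest part.

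**Figure D2:**
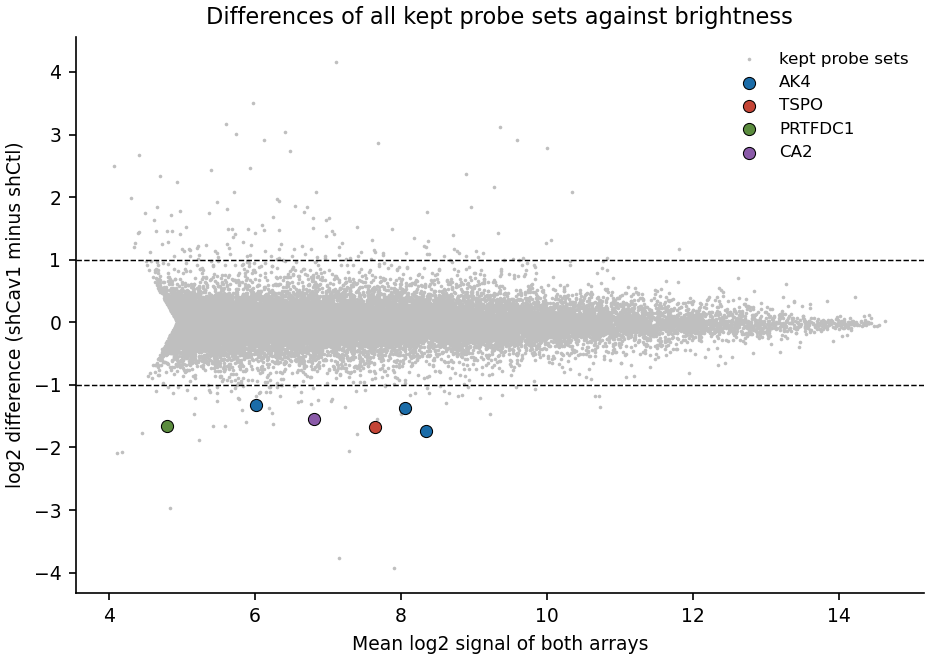
Log2 difference (shCav1 minus shCtl) of each of the 28128 kept probe sets against its mean log2 signal over both arrays, with the probe sets of AK4, TSPO, PRTFDC1 and CA2 in colour and dashed lines at 2-fold. The 6 coloured points lie below the lower line, from -1.33 to -1.74, in the dim and middle range of brightness.

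Further genes of the same pathways were looked up in the deposited tables. The shares over all kept probe sets were 0.299% lower and 0.501% higher. They count probe sets, and a gene with several probe sets can be named by any of them. At such shares lists of this size would hold few listed genes, so nothing is read from how few were named. The same limit holds for the neighbours and markers below. The tables name no probe set under 2-fold, so the medians of these lists were not computed and smaller differences are not excluded. Among 18 nucleotide kinases, 9 of them adenylate kinases, AK4 was named, as lower. Among 27 genes of purine synthesis and salvage, HPRT1 included, PRTFDC1 was named. Among 23 genes of carbonic anhydrases and of bicarbonate or proton transport, 15 of them carbonic anhydrases, CA2 was named. Among 17 hypoxia response genes, with CA9 and VEGFA among them, AK4 was named. Each of these lists was drawn up to hold the member named, so its being named is fixed by that choice. No other gene of these lists was named.

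The list of 18 TSPO partners and cholesterol import genes held 1 further lower gene, PPIF. It encodes cyclophilin D, a regulator of the permeability transition pore of the inner mitochondrial membrane. At 201490_s_at the PPIF signal went from 313 to 155. This is 49.5% of the control signal, a log2 difference of -1.01 at the edge of the limit. The VDAC channels and the adenine nucleotide carriers of the same list were not named past 2-fold in either direction.

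Annotation terms in the deposited tables put AK4 in the mitochondrial matrix, TSPO in the outer mitochondrial membrane, PRTFDC1 in the cytosol, and CA2 in the cytosol, nucleus and extracellular space among others. All 17 terms of AK4 and all 21 of PRTFDC1 rested on electronic annotation or sequence similarity alone, as did 5 of 16 for TSPO and 23 of 28 for CA2. The term mitochondrion was held by 10 of the listed genes, 6 of them lower and 4 higher, out of 66 lower and 114 higher genes with any term. The other lower ones were CAV1, ABCB10, SCCPDH and PPIF. ABCB10, a transporter of the inner mitochondrial membrane, had a log2 difference of -1.30, from a signal of 614 to 250.1. The higher ones were GPAM with 1.98, PRSS35 with 1.47, CRYAB with 1.23 and KCNJ8 with 1.22. These genes were grouped after their values were seen, and the group carries no test. The mitochondrial members thus stood beside genes of the same compartment that were higher or lower. Cholesterol binding was annotated to TSPO and to CAV1, the hairpin's own target, both lower, and to no higher gene. Steroid metabolic process was annotated to TSPO as the 1 lower gene and to 3 higher genes. Both terms were picked with their values in view, and nothing is read from either.

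**Figure D3:**
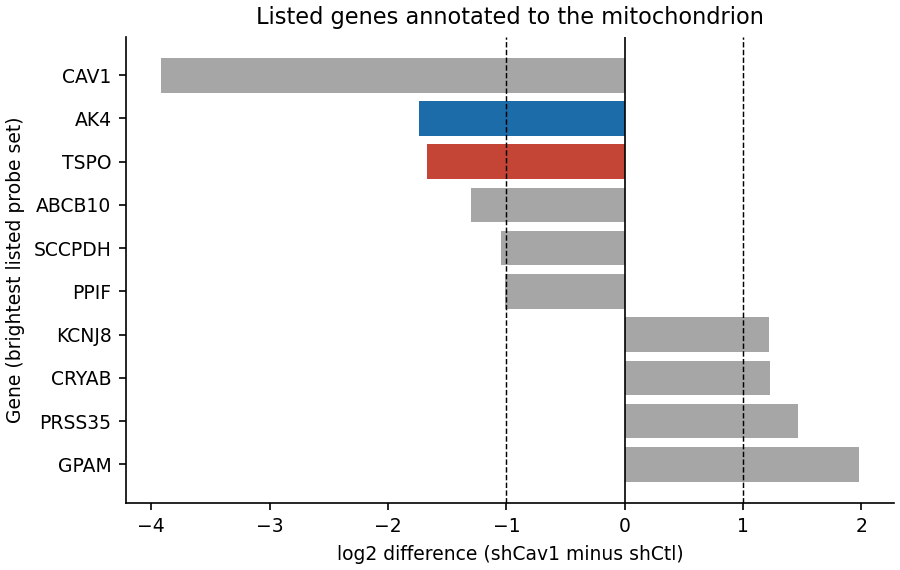
Log2 difference (shCav1 minus shCtl, brightest listed probe set) of the 10 listed genes annotated to the mitochondrion in the deposited tables, with AK4 in blue, TSPO in red, the others in grey and dashed lines at 2-fold. The 6 lower genes run from -3.92 for CAV1 to -1.01 for PPIF and the 4 higher ones reach 1.98 for GPAM.

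The listed genes whose signals were most like each member's were found by distance over the log2 signals of both arrays, which are 2 values per gene. Signals of different probe sets also depend on how well their probes bind, so the distance says nothing of shared control. For CA2 the nearest were ADRBK2, a kinase of G protein-coupled receptors, at a distance of 0.18 and OSTBETA, a subunit of a bile acid exporter, at 0.23. ADRBK2 went from 172 to 69.3 and OSTBETA from 178.5 to 75.5. For TSPO they were ENSA, an inhibitor of protein phosphatase 2A, at 0.36, with a log2 difference of -1.78, and AKAP12, a scaffold for protein kinase A, at 0.46 with -1.09. For AK4 they were NPW, a neuropeptide, at 0.43 with -1.13 and ABCB10 at 0.49. For PRTFDC1 they were TTC3, a ubiquitin ligase, at 0.49 with -1.03 and FAR2, which makes fatty alcohols, at 0.54 with -1.47.

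The genes lie on 4 different chromosomes. Of the 10 protein-coding genes nearest to each in the RefSeq order, 5 on either side, none was named in the deposited tables for TSPO, PRTFDC1 or CA2. For AK4, PDE4B was named, a phosphodiesterase of cyclic AMP. It went the other way, from 22.0 to 48.5, a log2 difference of 1.14. Its shCtl signal lay below the array median. With 0.299% of kept probe sets lower and 0.501% higher, so few neighbours say nothing about these places in the genome.

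Markers of hepatocytes and of other cell types were looked for in the deposited tables. Of 12 hepatocyte or hepatoma markers 1 was named, FGG, the fibrinogen gamma chain, which was higher, from 263 to 944. Of 11 erythroid markers 1 was named, XK, a membrane protein of red cells, which was lower, from 35.6 to 8.40, a shCav1 signal below the array median. Against shares of 0.299% lower and 0.501% higher over all kept probe sets, 1 gene in a list is too few to read a direction for red cell or liver genes. No marker of fibroblasts, endothelium, macrophages or lymphocytes was named. The levels of the other markers were not analysed here, and their part in the results was not tested.

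The arrays also differed in their control probe sets. The 18 probe sets for hybridization spikes were brighter in shCav1, with log2 differences from 0.07 to 0.25 and a median of 0.14. With all differences centred on these spikes, each member was lower by a further 0.14, from -1.46 to -1.87. In 12 of 14 control pairs with probe sets at both ends of a transcript, which cover 10 different transcripts because some spikes appear under more than 1 name, the difference was lower at the 5' end than at the 3' end, with a median 5' minus 3' value of -0.19. The AK4 probe sets are not such a pair, because 204348_s_at and 204347_at also align to chromosomes 12 and 17. Their order is therefore not compared with this pattern. The part of either control pattern in the results was not tested.

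**Figure D4:**
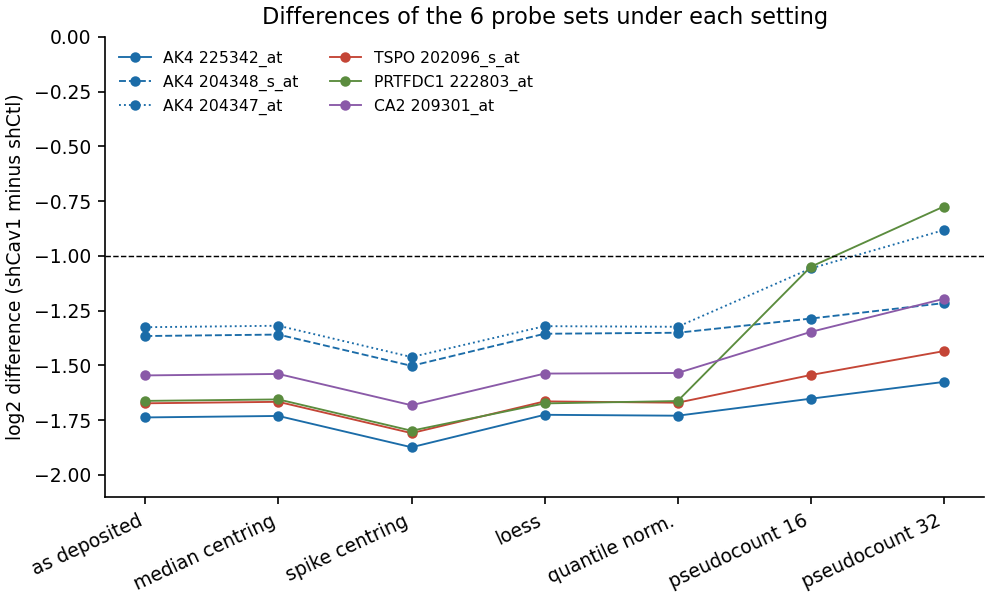
Log2 difference (shCav1 minus shCtl) of each of the 6 probe sets as deposited, under 4 other scalings of the arrays and with 16 or 32 added to the linear signals; the dashed line is 2-fold. The scalings leave every probe set past the line, while PRTFDC1 at -0.77 and AK4 204347_at at -0.88 rise above it with 32 added.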

How the data were processed

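Gene expression was measured on 2 Affymetrix HG-U133 Plus 2.0 arrays, per the file headers, from total RNA extracted with Trizol, per the labels. RMA is the tool that the submitters' processing notes name, with no version. The deposited series values are log2 values centred per probe set on both samples (column medians 0, largest row sum 1e-06), so they hold no levels. Their scale and direction follow from the authors' deposited log2 differences and linear folds, which match them for all 244 listed probe sets within 1e-05. The deposited linear signal intensity was used for shCtl. A further column of that file (1) could not be tied to a label and was left out. Signals in shCav1 are the shCtl signals times the fold, which takes both to be on 1 scale.

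Samples were grouped by title. The 62 control probe sets were left out. Named genes are the members, CAV1, any gene of 5 pathway and 6 marker lists named past 2-fold, and the 2 nearest listed genes per member; genes annotated to the mitochondrion and PDE4B were picked with their values in view. The members and lists were chosen with earlier results of these data known. No test was run. Counting was tested on simulated data. Scripts used Python 3.11.15, numpy 2.4.6, pandas 2.3.3 and, for loess (span 0.3), statsmodels 0.14.6.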

Additional observations from a re-analysis of the deposited data

How the results depend on the processing

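All 6 member probe sets remained lower in shCav1 under median centring, spike centring, loess, quantile normalization and pseudocounts of 16 and 32. Under the 4 scalings they lay between -1.87 and -1.32 and each stayed past 2-fold. Median centring, loess and quantile normalization barely moved the values, with AK4 225342_at at -1.73 under each against -1.74 as deposited. Spike centring made every probe set lower by 0.14. Staying past 2-fold under these scalings is therefore no support. Both centrings shift every probe set by the same amount, so they could not change the members relative to each other. A pseudocount of 16 gave -1.06 for AK4 204347_at and -1.05 for PRTFDC1. A pseudocount of 32 gave -0.88 and -0.77 for these, -1.43 for TSPO and -1.20 for CA2, since dim differences shrink by construction. For AK4, -1.74 at its brightest probe set became -1.37 at 204348_s_at, -1.33 at 204347_at and -1.48 as the mean of all 3.

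Over all kept probe sets the counts were 141 higher and 84 lower. Spike centring gave 102 higher and 142 lower. A pseudocount of 16 gave 91 higher and 49 lower, and 32 gave 60 and 33. A brightness filter at the 75th percentile gave 79 and 43, with 4 of the 6 member probe sets. A limit of 1.5-fold gave 552 and 578 with all 6 members, and 3-fold gave 42 and 16 with 3 members. Without _s_at and _x_at probe sets, chosen after seeing the data, 4 member probe sets were left. No paired analysis was possible because shCav1 and shCtl have 1 array each. The shCav1 signal of PRTFDC1, 0.507 times the array median, limits how well its decrease is known.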
